A study of Homo sapiens with 6 samples.

Results

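Fibroblast growth factors (FGFs) do not act on their receptors alone. The transcripts described here encode FGF family proteins and proteins around the receptors in HaCaT keratinocytes. They are the ligand *FGF2*, the FGF family gene *FGF11*, whose product does not activate FGF receptors, the carrier *FGFBP1* and the decoy receptor *FGFRL1*. The others are the heparan sulfate co-receptors *GPC1*, *SDC1* and *SDC4*, and the adaptors *FRS2*, *FRS3* and *GRB2*. These 10 genes were chosen by name for these roles, with earlier results of these data known, and each was found once by its Ensembl identifier among the 21475 genes of the tables. The receptor genes *FGFR1* to *FGFR4* are not among them. HaCaT cells are human skin keratinocytes that became immortal in culture without an introduced gene. The series holds 3 WT and 3 *FGFR2* KO HaCaT cell lines, 1 RNA-seq library per line, from cells kept in medium with 10% serum. The KO lines were made with Cas9 and a single guide RNA against exon 7 of *FGFR2* and were grown from single sorted cells, so that each KO line is 1 clone. The WT lines of the study are the starting population and clones of control cells, and the labels do not say which of them became which WT replicate, although a caption of the study describes its sequenced HaCaT lines as clonal. Differences between clones and differences between genotypes are therefore mixed in each line, and a p-value measures the difference against the spread between these lines.

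An FGF receptor is activated when a secreted FGF, the receptor and a heparan sulfate chain form a complex at the cell surface. The chains are carried by core proteins such as the transmembrane syndecans and the lipid-anchored glypicans, and secreted carriers such as FGFBP1 release FGFs that are stored on heparan sulfate in the matrix. Inside the cell the activated receptor phosphorylates the docking protein FRS2, which recruits the adaptor GRB2 and with it the RAS and ERK pathway; in the epidermis, FGFR2b receives its ligands FGF7 and FGF10 mainly from cells of the dermis.

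The 100 reference bases before the first annotated start are shown for 4 genes, *FGF2* with the lowest level of the 10 and *FGFBP1*, *GPC1* and *SDC4* among the highest, because their CG content spans the range found in the set. The bases come from RefSeq (GRCh38.p14) and are written 5′ to 3′ in the direction of transcription, with every CG dinucleotide in capitals. The windows lie at chr4:122826582-122826681 on the plus strand for *FGF2*, chr4:15938741-15938840 on the minus strand for *FGFBP1*, chr2:240435563-240435662 on the plus strand for *GPC1* and chr20:45348425-45348524 on the minus strand for *SDC4*.
FGF2: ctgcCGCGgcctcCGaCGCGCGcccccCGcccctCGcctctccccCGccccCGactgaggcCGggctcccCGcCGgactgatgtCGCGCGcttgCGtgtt
FGFBP1: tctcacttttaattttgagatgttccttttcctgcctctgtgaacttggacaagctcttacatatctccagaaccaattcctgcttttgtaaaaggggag
GPC1: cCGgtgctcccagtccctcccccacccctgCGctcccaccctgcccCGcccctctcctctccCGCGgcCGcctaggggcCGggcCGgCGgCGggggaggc
SDC4: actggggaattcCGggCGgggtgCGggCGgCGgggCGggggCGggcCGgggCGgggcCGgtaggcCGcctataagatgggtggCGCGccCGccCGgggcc

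*FGF2*, the transcript with the lowest level, has 17 CG in this stretch, and *FGFBP1*, with the second highest, has 0. In the full window of 250 bases before the RefSeq start, *FGFBP1* has 2 CG, a number that 85.3% of the 35116 promoter windows in the table reach. *FGF2* has 33, reached by 8.15%, and *GPC1* has 36, reached by 4.85%, against a median of 11 over all windows. The other members lie between 14 CG for *FRS2* and 29 for *FRS3*. *FGF11* has 3 RefSeq windows and *SDC1* has 2, and the window nearest the first annotated start was used. The window of *FGFRL1*, from 1012214 to 1012463 on the plus strand, lies inside the gene, whose first annotated start is at 1009936. That of *FRS3*, from 41779901 to 41780150 on the minus strand, also lies inside its gene, whose first annotated start is at 41786542. The GC box, searched as GGGCGG on both strands, occurs at least once in the windows of 9 members, all but *FGFBP1*, and in 42.6% of all windows. The letters TATAA, on either strand, occur in the window of *SDC4* alone among the members and in 18.9% of all windows. CG counts and GC boxes overlap, since each box contains a CG. These counts describe the reference sequence, and no binding or methylation was measured here.

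The library labels were checked on *FGFR2* itself, whose level is given, like all levels here, as deposited FPKM, the fragments assigned to a gene scaled by its length and by the library total. Series of 3 values follow replicates 1, 2 and 3 of a genotype. *FGFR2* was at 21.6, 39.75 and 15.0 FPKM (WT) against 3.04, 2.26 and 4.31 FPKM (KO), so the genotypes were fully separated. In such bulk libraries, fewer cells of a type and less RNA per cell cannot be told apart. The depth, inferred from how finely low FPKM values are graded, was between 67900000 and 88200000 fragments per library. The libraries differed within as well as between genotypes: the SD across genes of the log2 difference between 2 libraries was 0.354 to 0.669 within WT, 0.489 to 0.572 within KO and 0.358 to 0.862 between them. WT replicate 2 and KO replicate 3 lay at opposite ends of the first principal component, which held 49.1% of the variance. Mitochondrial genes took 21.5% to 27.6% of the summed FPKM in WT and 11.9% to 23.7% in KO libraries. The keratinocyte markers *KRT5*, *KRT14*, *KRT6A*, *TP63*, *DSP*, *DSG3*, *ITGB4* and *LAMB3* were all expressed, with a summed level of 11140 to 20620 FPKM across WT and 16290 to 32660 FPKM across KO libraries. Of the 6 fibroblast markers 2 averaged 0.5 FPKM or more, *COL1A1* and *DCN*. The list summed to 7.95 to 33.2 FPKM across WT and 6.90 to 12.6 FPKM across KO libraries. It was highest in WT replicate 2, where *DCN* was at 15.5 FPKM and *LUM* at 0.903 FPKM. *LUM* was highest in KO replicate 1, at 1.85 FPKM, where *DCN* was at 1.66 FPKM, and did not exceed 0.0753 FPKM in the remaining libraries. *COL1A2*, *COL3A1* and *PDGFRA* did not exceed 0.0638 FPKM. Of the 4 melanocyte markers 1, *PMEL*, and of the 4 leukocyte markers 2, *CD68* and *CD14*, reached 0.5 FPKM. The melanocyte list summed to 0.881 to 2.44 FPKM across WT and 0.708 to 1.065 FPKM across KO libraries, with *TYR*, *MLANA* and *DCT* at or near 0. The leukocyte list summed to 12.4 to 22.1 FPKM across WT and 5.26 to 11.7 FPKM across KO libraries, nearly all of it *CD68*, and *PTPRC* did not exceed 0.153 FPKM.

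The 10 transcripts covered more than 4 orders of magnitude, from *SDC1* at a mean of 330.9 FPKM over the 6 libraries to *FGF2* at 0.00942 FPKM. *SDC1*, *FGFBP1* and *GPC1* ranked 253rd, 282nd and 433rd among the 21475 genes by mean FPKM. *SDC4* followed at 107.2 FPKM and *GRB2* at 67.4 FPKM. Much lower came *FGF11* at 14.5, *FGFRL1* at 10.5, *FRS2* at 8.92 and *FRS3* at 1.53 FPKM. FPKM is a value per length, so these levels can be set side by side. Neighbours in this order often overlapped across libraries: *FGFBP1* with both *SDC1* and *GPC1*, *SDC4* with *GRB2*, and *FGFRL1* with both *FGF11* and *FRS2*, and their order changed from library to library. The values of *SDC1* stayed above those of *GPC1*, and those of *FGF11* above those of *FRS2*. *FRS3* was 9th and *FGF2* was 10th in each of the 6 libraries. *FRS2* varied least, with a coefficient of variation of 3.94% over the 6 libraries, and among the genes above 1 FPKM *FGFRL1* varied most, with 38.9%.

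**Figure D1:**
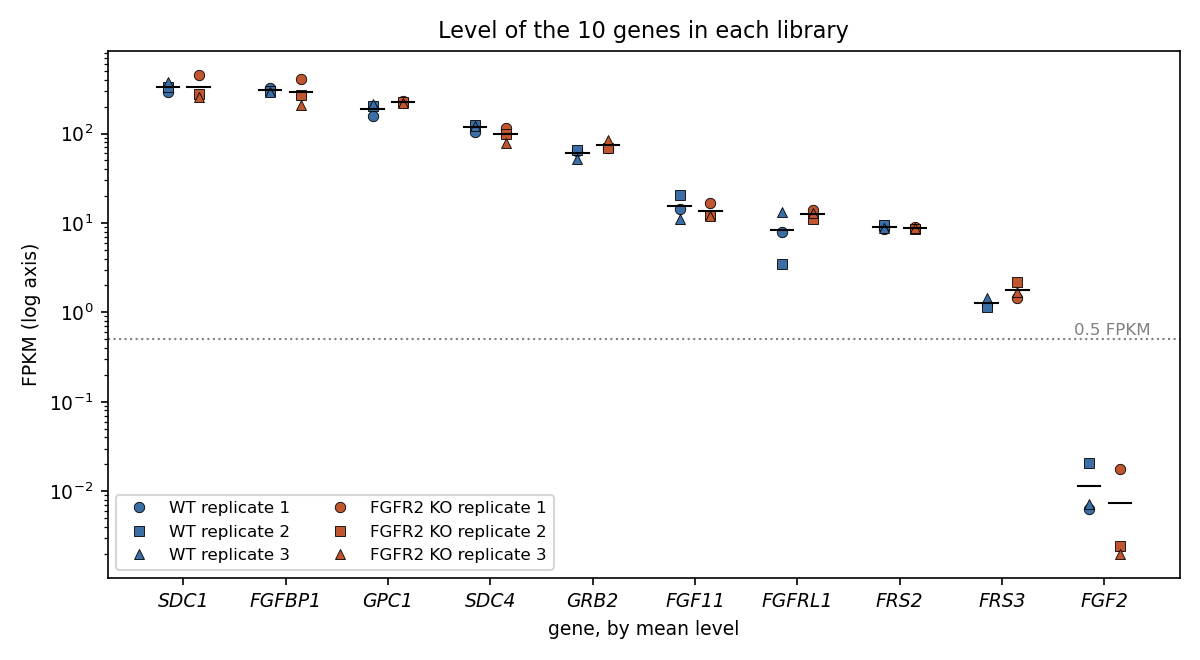
FPKM (log axis) of the 10 genes, ordered by mean level, in the 3 WT (blue) and 3 *FGFR2* KO (orange) libraries; symbols mark the replicate number, short lines the group means, and the dotted line the 0.5 FPKM minimum for testing. *FGF2* lies below that minimum in every library, and the WT values of *FGFRL1* spread from 3.48 to 13.4 FPKM.

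No difference between *FGFR2* KO and WT lines beyond the spread between lines was detected in any of the 9 genes that could be tested. The comparison was made with limma on log2(FPKM + 0.5) over the 12241 genes whose mean reached 0.5 FPKM, and calling a gene took a Benjamini-Hochberg adjusted p no larger than 0.05 together with an absolute log2 fold change no smaller than 0.5. Of the 10 genes 9 passed the filter on low values, all but *FGF2*, and 0 of the 9 were called; the same was true of all tested genes, of which 0 (0%) were called, and the smallest adjusted p of any gene was 0.261. *FGFR2* itself was not called (log2 fold change -2.73, limma adjusted p = 0.261), so 0 calls among the members do not show that their levels were equal. When the p was left unadjusted and the limits kept, 0 of the 9 members passed, against 1536 (12.5%) of all tested genes, 10.2% higher and 2.33% lower in KO. That split depended on the scaling, with 1251 higher and 285 lower as deposited and 785 higher and 521 lower under median-of-ratios scaling, which moved the median log2 fold change of all tested genes from 0.09 to -0.02. The median absolute log2 fold change was 0.26 for the 9 members and 0.23 for all tested genes, and the median signed change was -0.03 against 0.09. In 3 members, *GRB2*, *GPC1* and *FRS3*, all KO libraries lay above all WT libraries, and in 0 all lay below, where 18.3% of all tested genes lay above and 5.77% below, together 24.1%. With 9 genes, and with these separations as narrow as given below, nothing was read from that share. The mitochondrial share was lowest in KO replicates 3 and 1, and its part in these separations was not tested. For a single gene, 3 libraries against 3 cannot give a two-sided exact permutation p under 0.1.

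**Figure D2:**
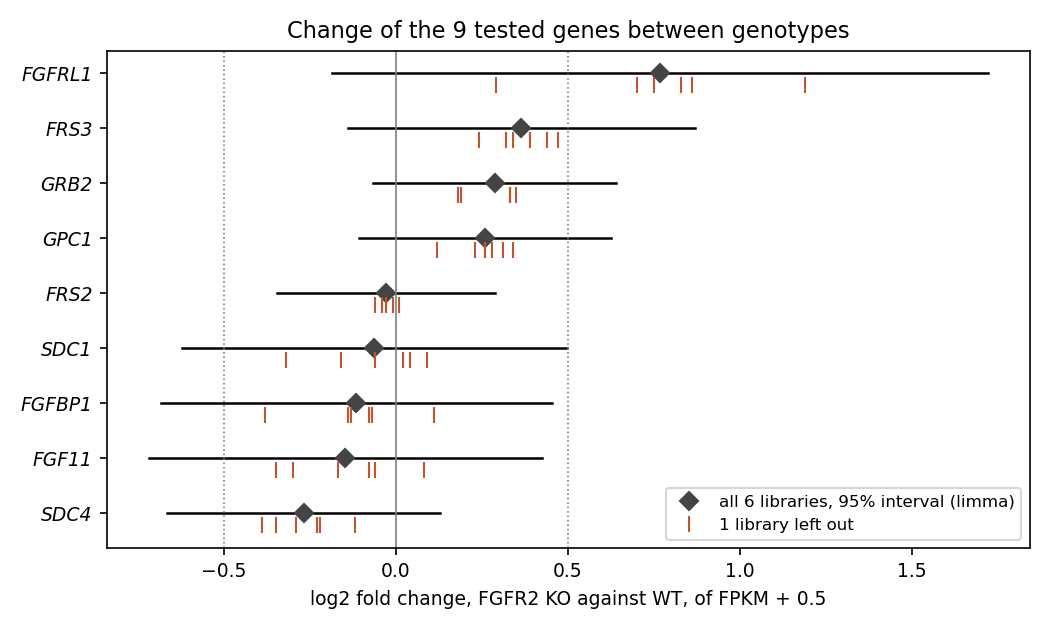
Log2 fold change (horizontal axis, *FGFR2* KO against WT, of FPKM + 0.5) of the 9 tested genes with its 95% interval from limma; orange ticks give the value with 1 of the 6 libraries left out, and dotted lines mark 0.5 in either direction. Every interval includes 0, from -0.27 for *SDC4* to 0.77 for *FGFRL1*, which has the widest interval.

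*FGF2*, a secreted ligand that binds several FGF receptors and is stored on heparan sulfate, was barely detected. Its levels were 0.00641, 0.0208 and 0.00726 FPKM (WT) against 0.0177, 0.00242 and 0.00199 FPKM (KO). If all of these fragments came from the longest annotated *FGF2* transcript, of 6801 bases, they would be 1.2 to 10.6 fragments per library, and 3 fragments would give 0.005 to 0.0065 FPKM. Both genotypes thus held libraries near or under this limit, the groups overlapped, and no fold change is given. *FGF2* (ENSG00000138685) lies on chromosome 4 from 122826682 to 122898236 on the plus strand, and 804 of its exonic bases are shared with *NUDT6* on the opposite strand, which was at 0.989 to 1.89 FPKM. The library kit keeps the strand, but whether the counting used it is not given in the sources used here.

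*FGF11* is an intracellular FGF homologous factor, which does not activate FGF receptors, and it was the ligand-family gene with the highest level. It had 14.4, 20.7 and 11.2 FPKM (WT) against 16.7, 12.2 and 11.9 FPKM (KO). The groups overlapped, and the WT libraries alone spanned a wider range than the KO libraries. The log2 fold change was -0.15 (95% interval -0.72 to 0.42, limma adjusted p = 0.774), with 15.4 ± 4.82 FPKM (WT) against 13.6 ± 2.66 FPKM (KO) (SD, n = 3 each). Its direction rested on WT replicate 2, without which the log2 fold change was 0.08. *FGF11* (ENSG00000161958) lies on chromosome 17 from 7438273 to 7444937, where 2 long non-coding gene models on the same strand share 1420 and 4169 of its exonic bases in the annotation used here; how reads were divided among overlapping models was not analysed here.

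Of the other 20 FGF family genes, 3 reached the minimum of 0.5 FPKM: *FGF1*, *FGF17* and *FGF12*. *FGF1*, a ligand of all FGF receptors, had 1.13, 2.17 and 0.750 FPKM (WT) against 0.339, 2.76 and 0.798 FPKM (KO). *FGF17* had 1.41, 1.47 and 0.794 FPKM (WT) against 1.14, 1.36 and 0.697 FPKM (KO). In both genes the genotypes overlapped, and 0 of the 3 tested FGF family genes of this list were past the unadjusted threshold. Nothing can be read from this with so few genes when 12.5% of all tested genes pass. *FGF7* and *FGF10*, the dermal ligands of FGFR2b, were named here after their values were known and were hardly expressed: *FGF10* was listed at 0 in all 6 libraries, and *FGF7* was at 0.0753 to 0.157 FPKM across WT and 0.0206 to 0.145 FPKM across KO libraries.

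*FGFBP1*, the secreted carrier that frees FGFs from the matrix, was abundant in both genotypes. It had 324.6, 298.1 and 294.1 FPKM (WT) against 406.3, 266.8 and 206.4 FPKM (KO). The WT libraries lay within a narrow range, and the KO lines lay on both sides of it, with replicate 1 above and replicates 2 and 3 below. The coefficient of variation was 5.43% in WT, and the group means were 305.6 ± 16.6 FPKM (WT) against 293.2 ± 102.5 FPKM (KO) (SD, n = 3 each). The log2 fold change was -0.12 (95% interval -0.68 to 0.45, limma adjusted p = 0.828), or a ratio between 0.623 and 1.37. Without KO replicate 3 it was 0.11, so the direction rested on 1 library. *FGFBP1* (ENSG00000137440) lies on chromosome 4 from 15935577 to 15938740 on the minus strand and has a single annotated transcript. The other FGF carriers and most co-receptors of other families were low: of 11 such genes 5 reached 0.5 FPKM, 0 passed the unadjusted threshold (12.5% of all tested genes), and the highest by the mean over all 6 libraries were *FLRT3*, an FGF receptor-binding membrane protein, at 1.03 to 5.95 FPKM across WT and 2.61 to 5.36 FPKM across KO libraries, and the cell adhesion gene *CDH2*. *CDH2* had 0.5603, 0.317 and 0.514 FPKM (WT) against 0.459, 1.595 and 5.50 FPKM (KO). KO replicate 3 was by far the highest and KO replicate 2 also lay above the WT libraries. KO replicate 1 lay among them, so the genotypes overlapped.

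*FGFRL1* encodes an FGF receptor-like protein that binds FGFs and heparin but has no tyrosine kinase domain. It showed the largest fitted difference of the 9 genes, with 7.90, 3.48 and 13.4 FPKM (WT) against 14.01, 11.1 and 13.04 FPKM (KO). The KO libraries lay close together, and WT replicate 3 lay among them, while WT replicate 2 was lowest. The means were 8.25 ± 4.96 FPKM (WT) against 12.7 ± 1.46 FPKM (KO) (SD, n = 3 each), and the log2 fold change was 0.77 (95% interval -0.19 to 1.72, limma adjusted p = 0.371). This value turned on the WT libraries: it was 0.29 without WT replicate 2 and 1.19 without WT replicate 3. In the fit without WT replicate 3 the unadjusted threshold was passed and the adjusted p from limma was 0.238. WT replicate 2, which had the lowest *FGFRL1*, was also the library with the highest *FGFR2* and the highest fibroblast marker sum; the part of these in the difference was not tested. *FGFRL1* (ENSG00000127418) lies on chromosome 4 from 1009936 to 1026898. Within a library, *FGFRL1* stood at 0.365, 0.0876 and 0.891 of the level of *FGFR2* in WT replicates 1, 2 and 3 and at 4.61, 4.93 and 3.03 times that level in the KO replicates, a ratio set mostly by the targeted gene. Against *FGFR3*, the receptor gene with the highest level, it stood at 0.168, 0.0458 and 0.249 in WT and 0.256, 0.190 and 0.295 in KO replicates 1, 2 and 3, and there the genotypes overlapped. *FGFR3* itself had 46.99, 75.98 and 53.65 FPKM (WT) against 54.69, 58.63 and 44.18 FPKM (KO). WT replicate 2 thus had the highest *FGFR3* as well as the lowest *FGFRL1*. By RT-qPCR the study reports lower *FGFR3* in its KO lines, while the FPKM of the genotypes overlapped here.

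The heparan sulfate co-receptor genes were among the most abundant transcripts of the lines, and 3 of them made up nearly all syndecan and glypican RNA. *SDC1*, *SDC4* and *GPC1* together held 96.6% to 98.6% of the summed FPKM of the 4 syndecan and 6 glypican genes in WT and 97.0% to 97.1% in KO libraries. *SDC1*, the main syndecan of keratinocytes, had 291.1, 334.7 and 374.2 FPKM (WT) against 454.6, 274.2 and 256.6 FPKM (KO). As with *FGFBP1*, KO replicate 1 was above all WT libraries and KO replicates 2 and 3 below all of them. The log2 fold change was -0.06 (95% interval -0.62 to 0.50, limma adjusted p = 0.909), and its sign changed when WT replicate 3, KO replicate 2 or KO replicate 3 was left out. *SDC1* (ENSG00000115884) lies on chromosome 2 from 20200797 to 20225433.

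*GPC1*, the glypican with the highest level in these cells, had 155.5, 200.9 and 211.2 FPKM (WT) against 232.1, 224.6 and 216.9 FPKM (KO). All KO libraries lay above all WT libraries, but the lowest KO value exceeded the highest WT value only from 211.2 to 216.9 FPKM. The means were 189.2 ± 29.6 FPKM (WT) against 224.5 ± 7.59 FPKM (KO) (SD, n = 3 each), a log2 fold change of 0.26 (95% interval -0.11 to 0.62, limma adjusted p = 0.420; two-sided exact permutation p = 0.1). It was called in 1 of 18 alternative settings, when the libraries were weighted by quality, with a log2 fold change of 0.51 and an adjusted p of 0.0494 from limma; in that fit WT replicate 1, which had the lowest *GPC1*, carried 89.7% of the weight of the WT group. *GPC1* (ENSG00000063660) lies on chromosome 2 from 240435663 to 240468076. The other glypican genes were low, with *GPC2* at 1.85 to 3.37 FPKM over all libraries.

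*SDC4*, a syndecan of focal adhesions, had 104.3, 124.0 and 122.2 FPKM (WT) against 114.1, 99.98 and 78.9 FPKM (KO). KO replicate 1 lay among the WT libraries and the other KO libraries below them. The log2 fold change was -0.27 (95% interval -0.67 to 0.13, limma adjusted p = 0.438), with 116.8 ± 10.9 FPKM (WT) against 97.7 ± 17.7 FPKM (KO) (SD, n = 3 each). *SDC4* (ENSG00000124145) lies on chromosome 20 from 45325288 to 45348424. Shares within a library do not depend on its scaling: *SDC4* held 18.3%, 18.5% and 16.7% of the syndecan and glypican sum in WT and 13.8%, 16.2% and 13.9% in KO replicates 1, 2 and 3. The genotypes did not overlap in this share, which was computed after the levels were known and was not tested. *GPC1* held 27.3%, 30.04% and 28.9% in WT and 28.1%, 36.4% and 38.1% in KO replicates 1, 2 and 3, and *SDC1* held 51.05%, 50.05% and 51.3% in WT and 55.1%, 44.4% and 45.1% in KO. The WT libraries were alike in the share of *SDC1*, while KO replicates 2 and 3 had a higher share of *GPC1* and a lower share of *SDC1* than KO replicate 1 and every WT library. The sum itself was 656.2 ± 80.4 FPKM (WT) against 670.3 ± 135.8 FPKM (KO) libraries (SD, n = 3 each).

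**Figure D3:**
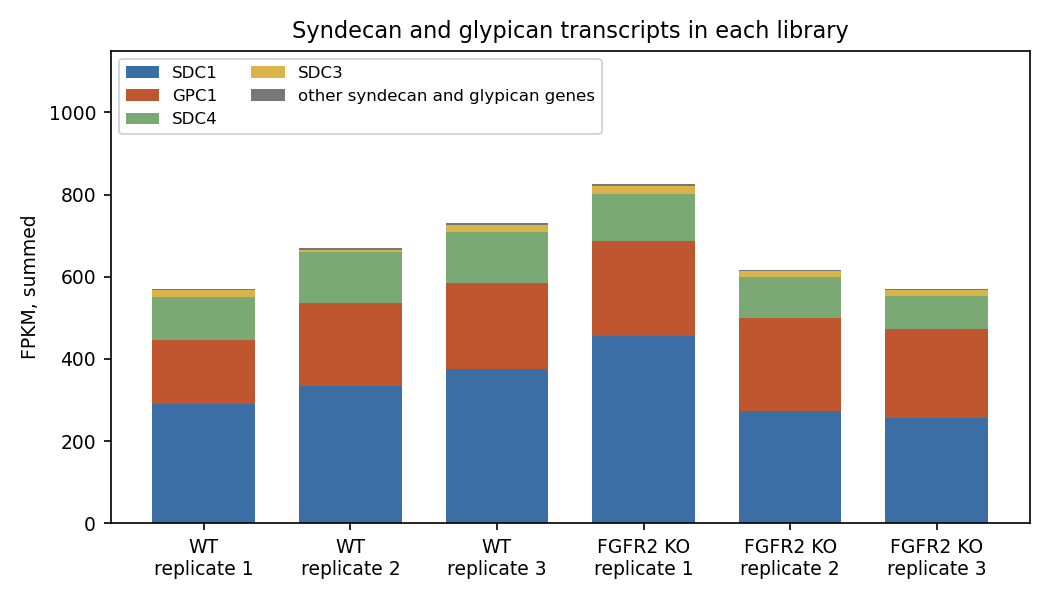
Summed FPKM of the 4 syndecan and 6 glypican genes in each library, stacked by gene. *SDC1*, *GPC1* and *SDC4* fill at least 96.6% of each bar, and KO replicate 1 has the highest sum, 824.6 FPKM.

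The docking protein gene *FRS2* was the most even of the 10 genes. It had 8.66, 9.57 and 8.83 FPKM (WT) against 8.99, 8.59 and 8.88 FPKM (KO). The log2 fold change was -0.03 (95% interval -0.35 to 0.29, limma adjusted p = 0.926), or a ratio between 0.786 and 1.22. *FRS2* (ENSG00000166225) lies on chromosome 12 from 69470349 to 69579793. *FRS3*, the paralog that also docks on FGF receptors, was lower, with 1.198, 1.15 and 1.46 FPKM (WT) against 1.46, 2.20 and 1.70 FPKM (KO). The genotypes were separated, with KO higher, but KO replicate 1 and WT replicate 3 were nearly equal, at 1.463 and 1.457 FPKM. The log2 fold change was 0.36 (95% interval -0.14 to 0.87, limma adjusted p = 0.412; two-sided exact permutation p = 0.1), on a scale that understates the change of a gene at this level. *FRS3* (ENSG00000137218), on chromosome 6 from 41770176 to 41786542, shares 132 exonic bases with ENSG00000124593 and 50 with *PRICKLE4*, both on the opposite strand, which were at 11.3 to 30.7 FPKM and 1.04 to 5.47 FPKM. *FRS2* exceeded *FRS3* in each library, by 7.23, 8.35 and 6.06 times in WT and 6.15, 3.91 and 5.22 times in KO replicates 1, 2 and 3.

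*GRB2*, the adaptor that links FRS2 to the RAS exchange factor SOS, had 63.7, 66.1 and 52.3 FPKM (WT) against 69.15, 69.15 and 83.9 FPKM (KO). All KO libraries lay above all WT libraries, KO replicate 3 by the widest margin. The means were 60.7 ± 7.38 FPKM (WT) against 74.1 ± 8.51 FPKM (KO) (SD, n = 3 each), and the log2 fold change was 0.29 (95% interval -0.07 to 0.64, limma adjusted p = 0.366; two-sided exact permutation p = 0.1). With the median of each chromosome removed it was 0.10, and with median-of-ratios scaling 0.17. *GRB2* (ENSG00000177885) lies on chromosome 17 from 75318076 to 75405709. Relative to *FRS2* in the same library, *GRB2* stood at 7.36, 6.90 and 5.92 in WT and 7.69, 8.05 and 9.449 in KO replicates 1, 2 and 3, values that did not overlap between genotypes and were not tested. Since *FRS2* was nearly even, this ratio mostly repeats the separation of *GRB2* itself. All KO libraries lay above all WT libraries in 18.3% of all tested genes.

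The other genes of the pathway were taken from lists written by hand, and 0 of their tested genes were called. Among 12 other heparan sulfate proteoglycan core proteins 7 were tested, and 1 was higher and 0 lower in KO at the unadjusted threshold, where all tested genes gave 10.2% and 2.33%. Their median log2 fold change was 0.16. The most abundant were *CD44*, the hyaluronan receptor, of which some isoforms carry heparan sulfate, with 1156, 1084 and 1116 FPKM (WT) against 1126, 1035 and 906.5 FPKM (KO), and the basement membrane gene *AGRN*, with 157.2, 186.2 and 199.2 FPKM (WT) against 161.1, 209.7 and 240.1 FPKM (KO). The genotypes overlapped for both. The gene past the unadjusted threshold was *COL18A1*, a collagen of basement membranes, with 12.2 ± 7.19 FPKM (WT) against 24.95 ± 7.28 FPKM (KO) (SD, n = 3 each; log2 fold change 1.12, limma adjusted p = 0.261). Its groups overlapped, with KO replicate 2 at 18.1 and WT replicate 3 at 20.2 FPKM.

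The enzymes that build and edit heparan sulfate chains gave 24 tested genes of 34, with a median log2 fold change of 0.25 against 0.09 for all tested genes. At the unadjusted threshold 3 were higher and 1 was lower in KO, where all tested genes gave 10.2% and 2.33%. All KO libraries lay above all WT libraries in 4 and below in 0, where the shares of all tested genes were 18.3% and 5.77%. *SULF2*, which removes 6-O-sulfates from chains outside the cell, had 57.4, 28.6 and 63.7 FPKM (WT) against 87.8, 78.1 and 102.3 FPKM (KO) (log2 fold change 0.91, limma adjusted p = 0.261). Its groups did not overlap, and WT replicate 2 was lowest; without that library the log2 fold change was 0.55. *XYLT2*, a xylosyltransferase that starts the chains, had 15.5, 12.8 and 14.9 FPKM (WT) against 18.9, 19.3 and 24.5 FPKM (KO) (log2 fold change 0.52, limma adjusted p = 0.261). It was under the threshold of 0.5 without KO replicate 3 (0.40) and under median-of-ratios scaling (0.41). The 3-O-sulfotransferase genes *HS3ST2* and *HS3ST6* had fitted values of opposite sign, and both overlapped between genotypes: *HS3ST2* had 0.8165 ± 0.694 FPKM (WT) against 2.27 ± 1.15 FPKM (KO) (log2 fold change 1.13, limma adjusted p = 0.279), and *HS3ST6* had 11.1 ± 1.06 FPKM (WT) against 5.76 ± 3.87 FPKM (KO) (log2 fold change -1.06, limma adjusted p = 0.263; SD, n = 3 each). KO replicate 2 was at 10.2 FPKM of *HS3ST6*, between the WT values, so that the lower mean came from KO replicates 1 and 3, at 4.13 and 2.97 FPKM. The most abundant enzyme gene, *NDST1*, which replaces acetyl by sulfate groups on the chains, had 110.7 ± 14.15 FPKM (WT) against 95.95 ± 11.4 FPKM (KO) (SD, n = 3 each; limma adjusted p = 0.519).

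The adaptors and enzymes downstream of FRS2 gave 22 tested genes of 24, of which 15 had a lower and 7 a higher mean in KO, where 7420 of all tested genes had a higher and 4821 a lower one. Their median log2 fold change was -0.17, and at the unadjusted threshold 1 was higher and 2 were lower, beside 10.2% and 2.33% of all tested genes. In 5 all KO libraries lay below all WT libraries and in 2 all lay above, beside 5.77% and 18.3% of all tested genes. *GAB1*, a docking protein that binds GRB2, had 13.2, 11.5 and 12.7 FPKM (WT) against 8.87, 10.1 and 6.48 FPKM (KO) (log2 fold change -0.55, limma adjusted p = 0.261). *SOS2*, a RAS exchange factor, had 18.0, 20.9 and 17.3 FPKM (WT) against 15.0, 14.8 and 9.01 FPKM (KO) (log2 fold change -0.55, limma adjusted p = 0.278). The groups did not overlap in either gene, and KO replicate 3 was lowest in both; with 1 library left out the log2 fold changes reached from -0.68 to -0.37 for *GAB1* and from -0.67 to -0.32 for *SOS2*. *PLCG1*, the phospholipase that FGF receptors bind directly, had 43.2, 28.3 and 50.8 FPKM (WT) against 58.0, 54.8 and 73.4 FPKM (KO) (log2 fold change 0.63, limma adjusted p = 0.267). Without WT replicate 2, its lowest library, the log2 fold change was 0.39, under the threshold of 0.5. The genes with the highest level were *PTPN11*, the phosphatase recruited by FRS2, with 85.2 ± 7.03 FPKM (WT) against 114.0 ± 16.6 FPKM (KO) (log2 fold change 0.41, limma adjusted p = 0.263), and the kinase subunit gene *PIK3R2*, with 94.2 ± 10.9 FPKM (WT) against 73.6 ± 7.03 FPKM (KO) (log2 fold change -0.35, limma adjusted p = 0.285; SD, n = 3 each).

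**Figure D4:**
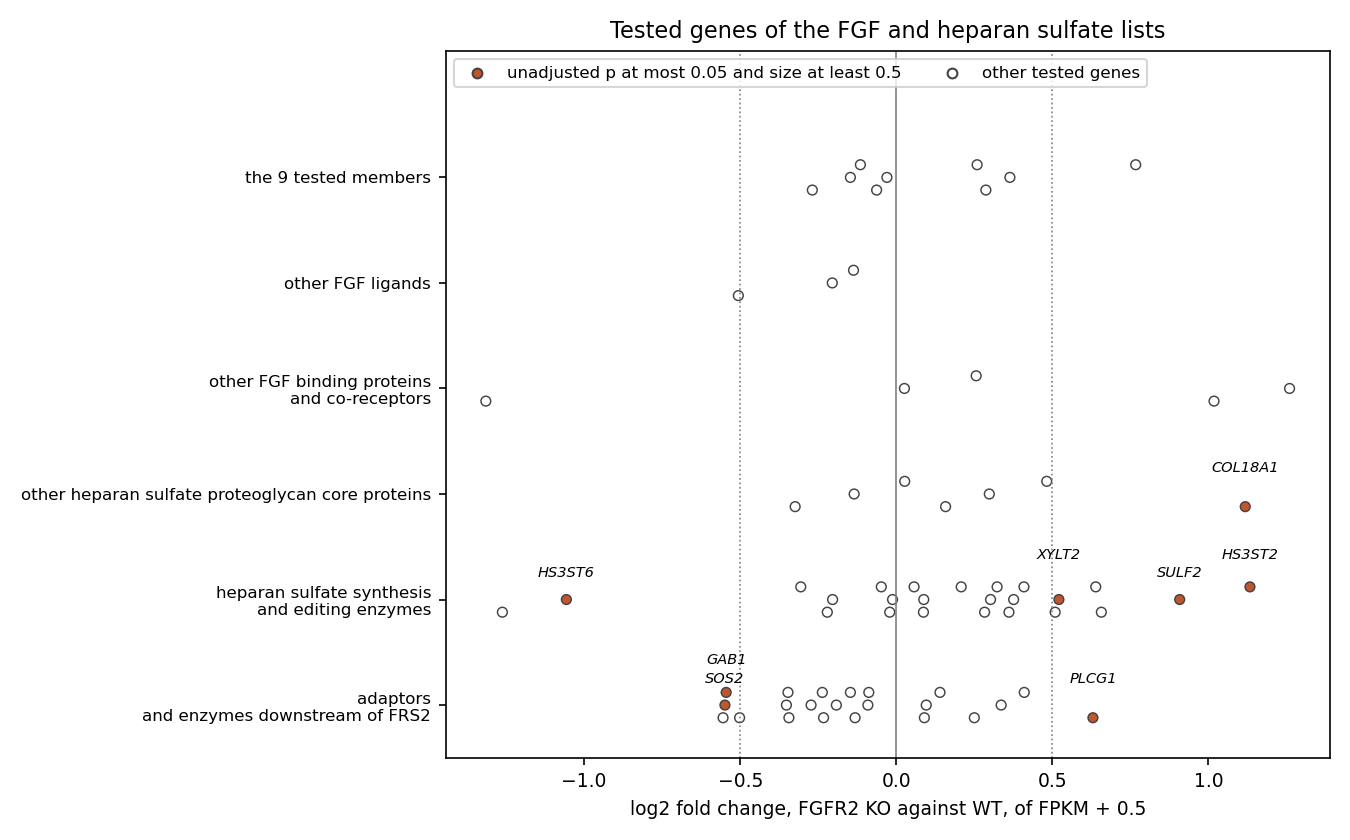
Log2 fold change (horizontal axis, *FGFR2* KO against WT, of FPKM + 0.5) of every tested gene of the members and the 5 surrounding lists, 1 point per gene; points are spread vertically for legibility. The 8 filled points had an unadjusted p no larger than 0.05 and an absolute log2 fold change no smaller than 0.5, none of them a member, and 0 genes passed the adjusted threshold.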

How the data were processed

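The authors trimmed reads with fastp 0.20.0, pseudoaligned them with kallisto 0.46.1 to GRCh38.p13 (GENCODE release 37) and deposited FPKM per gene. How FPKM were derived is not given in the sources used here. Symbols and positions came from GENCODE release 44. After 18 Y copies of pseudoautosomal genes were left out, 21475 genes remained, of which 21400 had a symbol. Of 4535 low values of genes with 1 transcript, 67.1% were whole fragments within 0.02 (4% by chance). The depth used for this was itself set from the commonest steps of such values. The remaining values were not whole, and genes with several transcripts were not checked. Counts were therefore not recovered for all genes, and no count test was run. limma 3.58.1 (R 4.3.3) compared the 6 libraries on log2(FPKM + 0.5), with a mean-variance trend, no covariate and Benjamini-Hochberg adjustment. This replaces the count test of the study's methods, which FPKM cannot feed. With its own test the study reports differentially expressed genes between the genotypes, *FGFR2* strongly lowered among them. The absence of called genes in the main comparison here applies to the FPKM test only. Named were the members, the 2 most abundant genes of each list, its genes past the unadjusted threshold, genes with exons overlapping a member, and marker genes. Members and lists were chosen with earlier results of these data known. Alternatives covered pseudocount, filter, scaling, variance model, library weights, replicate block, chromosome medians and leaving out each library.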

Additional observations from a re-analysis of the deposited data

How the results depend on the processing

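In 17 of 18 alternatives 0 genes were called; with library weights 1396 were (1160 higher, 236 lower). That fit put 89.7% of the WT weight on WT replicate 1. The count at the unadjusted threshold went from 630 to 2256 with 1 library left out (without KO replicate 3 and without KO replicate 2), and was 960 without WT replicate 1. The members passing it numbered 2 with library weights (*FGFRL1*, *GPC1*), 1 with the replicate block (*FGFRL1*), and 0 or 1 with a library left out. With library weights the sign turned for *FGF11* (0.04), *FGFBP1* (0.04), *FRS2* (0.03) and *SDC1* (0.31), and with TPM scaling for *FRS2* (0.01). With 1 library left out the log2 fold change ran from -0.35 to 0.08 for *FGF11*, -0.38 to 0.11 for *FGFBP1*, -0.06 to 0.01 for *FRS2* and -0.32 to 0.09 for *SDC1*; the cause was not tested. *FGFRL1*, *FRS3*, *GPC1*, *GRB2* and *SDC4* kept their sign in every alternative that tested them, but their size varied. Over all alternatives the log2 fold change ran from 0.29 to 1.19 for *FGFRL1*, 0.24 to 0.47 for *FRS3* and 0.12 to 0.51 for *GPC1*. It ran from 0.1 to 0.35 for *GRB2* and from -0.45 to -0.02 for *SDC4*. The labels link same-numbered WT and KO lines by nothing but the number. The correlation of their deviations from the group means was -0.21, 0.22 and 0.05, and only WT replicate 2 correlated best with its own number. With so few lines these values cannot tell whether same-numbered lines were handled together. With the replicate number as a block 0 genes were called and 1762 were at the unadjusted threshold. FPKM hold no counts, so precision rests on the spread of 3 lines per group, and *FGF2* lies at the limit of the depth.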

Other observations

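Besides *XYLT2*, the enzymes of the linker that joins heparan sulfate chains to their core proteins were looked at after their values were seen. *B4GALT7*, the galactosyltransferase that follows the xylosyltransferase, had 6.41, 7.84 and 7.28 FPKM (WT) against 9.32, 8.53 and 11.35 FPKM (KO) (log2 fold change 0.41, limma adjusted p = 0.285). *B3GALT6*, which adds the next galactose, had 2.91, 2.44 and 3.78 FPKM (WT) against 3.795, 4.14 and 7.94 FPKM (KO) (log2 fold change 0.66, limma adjusted p = 0.308). In both genes all KO libraries lay above all WT libraries, as in 4 of the 24 tested genes of the enzyme list and 18.3% of all tested genes. KO replicate 1 and WT replicate 3 were nearly equal for *B3GALT6*, and KO replicate 3 was highest in both genes. *B3GAT3*, the glucuronosyltransferase that closes the linker, had 11.7, 16.1 and 11.2 FPKM (WT) against 12.7, 12.8 and 14.7 FPKM (KO), and its groups overlapped. The groups also overlapped for the other linker genes of the list: the xylosyltransferase gene *XYLT1* had 0.623, 2.29 and 1.04 FPKM (WT) against 1.95, 1.57 and 1.58 FPKM (KO), and the xylose kinase gene *FAM20B* had 34.0, 31.6 and 32.6 FPKM (WT) against 31.2, 28.4 and 35.7 FPKM (KO).

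Among the co-receptors, *NRP1* and *ANOS1* were named here after their values were known. *NRP1*, a neuropilin, had 0.876, 0.278 and 0.794 FPKM (WT) against 0.914, 1.346 and 3.91 FPKM (KO) (log2 fold change 1.02, limma adjusted p = 0.306). All KO libraries lay above all WT libraries, as in 18.3% of all tested genes, and KO replicate 1 and WT replicate 1 were nearly equal. KO replicate 3 was highest, as it was for *CDH2*, whose genotypes overlapped. *ANOS1*, a secreted protein that binds heparan sulfate, had 0.413, 6.44 and 0.928 FPKM (WT) against 0.0876, 0.529 and 0.471 FPKM (KO), so that WT replicate 2 stood apart from the other 5 libraries.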
